A study of Mus musculus with 6 samples.

Results

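Schwann cells wrap the axons of peripheral nerves, and in the wall of the aorta they travel with the nerve fibers of the adventitia and of the surrounding fat. The transcription factor SOX10 defines the lineage and, together with EGR2, switches on the genes of myelin, the stack of membrane that insulates an axon. MBP and PMP22 are built into compact myelin, CNP and MAG lie in its noncompact regions and beside the axon, and periaxin, the product of *Prx*, ties the outer surface of the sheath to the basal lamina. The 8 genes described here are *Sox10*, *S100b*, *Mbp*, *Pmp22*, *Cnp*, *Mag*, *Prx* and *Ncmap*, chosen by name and matched by NCBI gene identifier. All 8 were among the 18191 genes of the table, and 6 of the 8 passed the filter on low counts, which left 13938 genes to test. *Mag* and *Ncmap* did not pass it.

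RNA of whole aortas from male mice was sequenced in 6 libraries, 3 from WT mice and 3 from Npr1+/- mice, in which CRISPR-Cas9 disrupted 1 copy of *Npr1*, the receptor gene of atrial and B-type natriuretic peptide. The disruption is carried by every cell and not by a chosen cell type, and age, strain and the number of mice behind a library are not given in the sources used here, so that the p-values measure the spread between libraries. The estimated counts summed to between 13510970 and 16664343 per library, and a floor of 3 counts equals 0.180 to 0.222 CPM, the count of a gene scaled to a common library size. In a whole vessel, fewer cells of a type and less RNA per cell cannot be told apart.

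A library that stood apart bears on every value below. In Npr1+/- 1, all 12 listed marker genes of neurons had their highest level, and their summed CPM was 587.3, against 8.34 to 9.13 in the WT libraries and 16.3 and 11.4 in the other two Npr1+/- libraries. *Dbh*, which encodes the enzyme that makes noradrenaline in sympathetic neurons, had an FPKM (a level scaled by transcript length and library size) of 56.15 in Npr1+/- 1 and at most 0.25 in the other 5 libraries. Both libraries numbered 1 were also rich in fat genes, with a summed CPM of 8 adipocyte genes of 7570 in WT 1 and 11274 in Npr1+/- 1, against 1341 to 3487 in the others. The 7 smooth muscle genes were all lowest in Npr1+/- 1. Of all tested genes, 28.9% were highest in that library and 29.6% were lowest there. The part of these differences in the results below was not tested, and the values without Npr1+/- 1, or without both libraries numbered 1, are given where they differ. *Npr1* itself was measured at 112.43, 153.33 and 151.51 FPKM across WT 1 to 3, against 70.35, 109.92 and 132.95 across Npr1+/- 1 to 3, so that the groups overlapped while the Npr1+/- library was the lower one in each of the 3 pairs of the same number. Its log2 fold change by edgeR was -0.41 ± 0.27 (SE, unadjusted p = 0.178, adjusted p = 0.999), and blocking on the replicate number gave -0.44 (edgeR, unadjusted p = 0.0221, adjusted p = 0.311).

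By level, *Pmp22* stood far above the other members in WT aortas, with a mean FPKM of 98.6 ± 13.8 (SD, n = 3). *S100b* followed at 12.8 ± 9.68, *Cnp* at 7.79 ± 0.76 and *Mbp* at 6.22 ± 2.11, and the ranges of neighbors in this order overlapped among these 3 genes. *Prx* was at 3.97 ± 0.374 and *Sox10* at 1.05 ± 0.379. *Ncmap* at 0.163 ± 0.0416 and *Mag* at 0.0533 ± 0.0252 were close to the limit of detection. From *Mbp* down, the WT range of each gene lay below that of the one before it, without overlap.

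**Figure D1:**
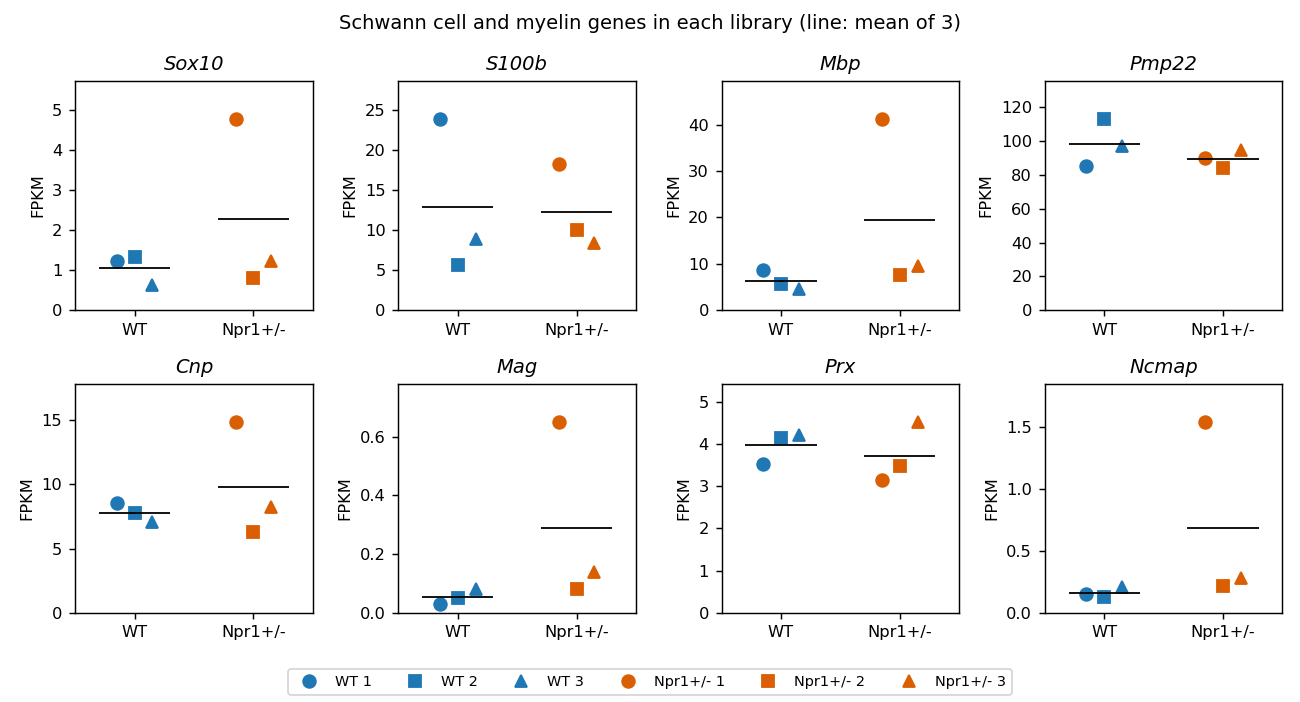
FPKM of each of the 8 genes (vertical axis, linear and starting at 0) in the 3 WT and the 3 Npr1+/- libraries, with the mean of each genotype as a line. *Sox10*, *Mbp*, *Cnp*, *Mag* and *Ncmap* had their highest value in Npr1+/- 1, *S100b* was highest in WT 1 and next in Npr1+/- 1, and the points of *Pmp22* and *Prx* lay close together.

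*Sox10* (NCBI gene 20665, chromosome 15 of GRCm38 from 79154908 to 79165240, minus strand), the master regulator of the lineage, was measured at 1.22, 1.32 and 0.62 FPKM across WT 1 to 3, against 4.77, 0.81 and 1.22 across Npr1+/- 1 to 3. Only Npr1+/- 1 lay outside the WT range, and it was 3.81 times the next highest library in CPM. By edgeR's quasi-likelihood test, the log2 fold change of Npr1+/- over WT was 1.14 ± 0.71 (SE) with an adjusted p of 0.999. Without Npr1+/- 1 it was -0.078, and without both libraries numbered 1 it was 0.06.

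*Mbp* (NCBI gene 17196, chromosome 18 from 82475146 to 82585637, plus strand) encodes myelin basic protein, which holds the cytoplasmic faces of compact myelin together. The same gene also gives the longer golli transcripts of other cells, and the gene-level counts do not separate them. Across WT 1 to 3 its FPKM came to 8.58, 5.57 and 4.52, and across Npr1+/- 1 to 3 to 41.17, 7.62 and 9.55. Npr1+/- 1 was far above the rest, while Npr1+/- 2 lay below WT 1. In CPM both Npr1+/- 2 (22.8) and Npr1+/- 3 (22.6) lay below WT 1 (26.2). The quasi-likelihood fit of edgeR gave a log2 fold change of 1.44 ± 0.66 (SE, unadjusted p = 0.0659, adjusted p = 0.999), and 0.28 without Npr1+/- 1.

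Among the 8 genes, *Mbp*, *Mag* and *Ncmap* had the higher CPM in the Npr1+/- library within all 3 pairs that share a replicate number. The share of all tested genes with this order was not counted. For *Mag* and *Ncmap*, the numbers 2 and 3 rested on at most 7 counts per library. The labels do not say that the numbers mark matched libraries, and the profiles did not show it for numbers 2 and 3. The ratio of CPM was 4.04, 1.54 and 1.56 for *Mbp* in the numbers 1 to 3. Blocking on the replicate number brought the log2 fold change of *Mbp* to 1.11 (edgeR's quasi-likelihood test, unadjusted p = 0.00411, adjusted p = 0.180), and 12.4% of all tested genes had an unadjusted p under 0.05 in that fit. Without both libraries numbered 1 it was 0.63 (unadjusted p = 0.00201, adjusted p = 0.206 from the same edgeR test). In that fit, 1609 of 13938 tested genes had an unadjusted p under 0.05. DESeq2 with the replicate block, added after the data were seen, called *Mbp* at an adjusted p of 0.00791 and a log2 fold change of 1.09. Over the 14 alternatives tried for this gene, the adjusted p lay between 0.00791 and 1.00.

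*Cnp* (NCBI gene 12799, chromosome 11 from about 100574900 to about 100591730, plus strand) encodes the cyclic nucleotide phosphodiesterase of noncompact myelin. Its FPKM came to 8.56, 7.78 and 7.04 across WT 1 to 3 and to 14.88, 6.27 and 8.26 across Npr1+/- 1 to 3. Npr1+/- 1 was again the highest, by a smaller factor of 1.83 over the next library in CPM, and Npr1+/- 2 was the lowest of the 6. The same edgeR fit put the log2 fold change at 0.33 ± 0.34 (SE, adjusted p = 0.999), and at -0.17 without Npr1+/- 1.

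*Mag* (NCBI gene 17136, chromosome 7 from 30899176 to 30914873, minus strand), the myelin-associated glycoprotein of the membrane that faces the axon, had 1, 2 and 3 counts across WT 1 to 3, against 23, 3 and 5 counts across Npr1+/- 1 to 3. *Ncmap* (NCBI gene 230822, chromosome 4 from about 135369580 to about 135398230, minus strand), which encodes a protein of noncompact peripheral myelin, had 3, 3 and 5 counts in WT and 33, 5 and 7 counts in Npr1+/- libraries. For both genes the 3 Npr1+/- libraries lay above the 3 WT libraries in CPM, but Npr1+/- 2 held the same number of counts as WT 3. Among all tested genes, which do not include *Mag* and *Ncmap*, 3.90% had every Npr1+/- library above every WT library. The exact two-sided permutation test gave p = 0.1 for each of both genes, the smallest value that 3 libraries against 3 allow. Outside Npr1+/- 1 these differences rested on at most 7 counts per library.

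*S100b* (NCBI gene 20203, chromosome 10 from 76253853 to 76261159, plus strand) encodes a calcium-binding protein of glia that adipocytes also make. WT 1 to 3 held 23.84, 5.69 and 8.94 FPKM of it and Npr1+/- 1 to 3 held 18.27, 10.05 and 8.41, and both libraries numbered 1 were above the other 4. The log2 fold change was -0.040 ± 0.57 (SE), and it ranged from -0.50 without Npr1+/- 1 to 0.74 without WT 1. Of the 8 adipocyte genes, 6 likewise had both libraries numbered 1 above the other 4 in FPKM, and *Lep* and *Retn* did not. All 8 were higher in Npr1+/- 1 than in WT 1, where *S100b* was lower, and the part of fat in its level was not tested.

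*Pmp22* (NCBI gene 18858, chromosome 11 from 63128982 to 63159547, plus strand), a tetraspan protein of compact myelin that fibroblasts and other cells also make, was measured at 85.46, 112.96 and 97.29 FPKM across WT 1 to 3, against 90.0, 84.33 and 94.72 across Npr1+/- 1 to 3. The highest library was 1.32 times the lowest in CPM. Its log2 fold change was -0.13 ± 0.16 (SE). The summed CPM of 6 fibroblast genes ran from 3911 to 5877 in WT and from 2650 to 4242 in Npr1+/- libraries, with the lowest sum in Npr1+/- 1, and their part in the level of *Pmp22* was not tested. *Prx* (NCBI gene 19153, chromosome 7 from 27499324 to 27520214, plus strand) came to 3.54, 4.15 and 4.22 FPKM across WT 1 to 3 and to 3.14, 3.48 and 4.53 across Npr1+/- 1 to 3. Npr1+/- 1 held the lowest of these values, and the log2 fold change was -0.084 ± 0.17 (SE).

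**Figure D2:**
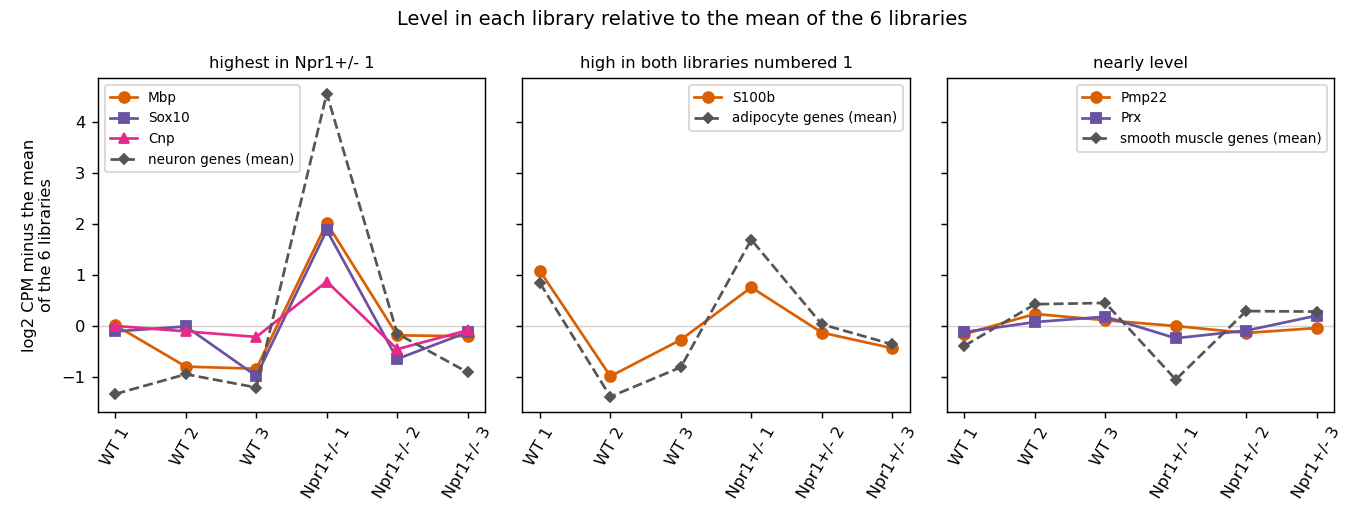
Log2 CPM of 6 members minus their own mean over the 6 libraries (vertical axis), beside the mean of the tested neuron, adipocyte and smooth muscle genes. Lines join points of the same gene and imply no order of the libraries. *Mbp*, *Sox10* and *Cnp* peaked in Npr1+/- 1, as the neuron genes did. *S100b* was high in both libraries numbered 1, as the adipocyte genes were. *Pmp22* and *Prx* stayed within a narrow band. All 8 adipocyte genes, all 7 endothelium genes and 28.9% of all tested genes were also highest in Npr1+/- 1.

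The comparison of genotypes asked whether loss of 1 copy of *Npr1* altered these genes. A gene was called where its adjusted p was below 0.05 and its log2 fold change reached 0.5 in either direction. By edgeR's quasi-likelihood test this held for 0 of the 6 tested members, beside 0% of all 13938 tested genes, and 0 members had an unadjusted p under 0.05, beside 2.96% of all tested genes. DESeq2 also called 0 of the 8 members, beside 0.0832% of the genes it tested, and gave *Mbp*, *Mag* and *Ncmap* an unadjusted p under 0.05, beside 3.24% of those genes. DESeq2 with the replicate block called 1, *Mbp*, beside 1.98% of the genes it tested. Of the 6 tested members, 3 had a positive log2 fold change, beside 51.6% of all tested genes. Their median was 0.14, against 0.01 over all tested genes, and without Npr1+/- 1 both medians were negative, at -0.13 and -0.034. Without WT 1 the median of the members was 0.56.

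**Figure D3:**
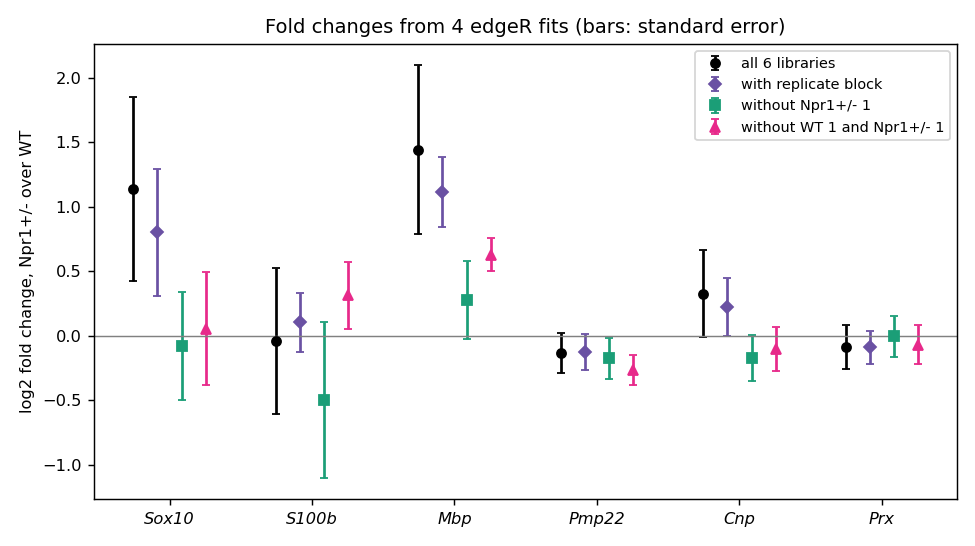
Log2 fold change of Npr1+/- over WT (vertical axis) with its standard error, for the 6 members that passed the filter, from edgeR fits of all 6 libraries, with the replicate block, without Npr1+/- 1, and without both libraries numbered 1. The estimates for *Sox10* and *Cnp* were positive with all libraries and at or below 0.06 in the fits without Npr1+/- 1, that of *Mbp* stayed positive in all 4 fits, that of *Pmp22* was negative in all 4 and reached -0.26 without both libraries numbered 1, and that of *Prx* lay near 0.

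The members differed in how steady they were within a genotype. For *Sox10*, *Mbp* and *S100b*, the SD of log2 CPM within a genotype was 1.02, 0.96 and 0.86, above that of 96.1%, 95.4% and 93.3% of all tested genes. That of *Cnp* was 0.49, above 75.9% of the genes. For *Prx* and *Pmp22* it was 0.19 and 0.15, above 31.1% and 20.6%. Npr1+/- 1 was the highest library for 5 of the 8 members, *Sox10*, *Mbp*, *Cnp*, *Mag* and *Ncmap*. Of the 6 tested members it was highest for 3, beside 28.9% of all tested genes. Npr1+/- 1 was the lowest library for 1 of the 8, *Prx*, and for 29.6% of all tested genes.

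Levels were also read relative to *Sox10*, as the ratio of FPKM within a library. The FPKM of *Mbp* was 7.03, 4.22 and 7.29 times that of *Sox10* across WT 1 to 3, against 8.63, 9.41 and 7.83 times across Npr1+/- 1 to 3. In FPKM the Npr1+/- ratios all lay above the WT ratios, and Npr1+/- 1 did not stand out among them. In CPM the ratios of the groups overlapped. There *Mbp* and *Sox10* were at 14.5 and 1.73 in WT 3, against 22.6 and 3.24 in Npr1+/- 3. *Cdh19*, a cadherin of Schwann cells, was between 0.66 and 0.93 times *Sox10* in all 6 libraries. It is also among the genes picked below as nearest to *Sox10* in profile. Other genes of the lineage lists did not keep step. *Foxd3*, a listed regulator, ran from 0.08 to 0.57 times *Sox10*. *Ngfr*, a listed gene of non-myelinating cells, was 3.96 times *Sox10* in Npr1+/- 1 and 0.09 to 0.30 times elsewhere. *Cnp* per *Sox10* was lowest in Npr1+/- 1, at 3.12 times against 5.89 to 11.35 times elsewhere. *S100b* per *Sox10* was likewise lowest there, at 3.83 times against 4.31 to 19.54 times.

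Likeness of profile was measured as the root mean square difference of log2 CPM, each gene centered on its own mean over the 6 libraries, and the 3 nearest of all tested genes were taken for each tested member. For *Sox10* they were *Col28a1*, *Gatm* and *Cdh19*, at distances of 0.12, 0.13 and 0.15. *Col28a1* encodes a collagen of peripheral nerve, and its FPKM was 0.92, 0.72 and 0.36 in WT and 2.57, 0.48 and 0.73 in Npr1+/- 1 to 3. For *Mbp* they were *Nmnat2*, an enzyme that maintains axons, *Cxcl14* and *Gng2*, at 0.15, 0.16 and 0.17. For *S100b* they were *Slc16a1*, a lactate transporter, and the mitochondrial genes *Mdh2* and *Atp5b*, at 0.14, 0.15 and 0.15. *Slc16a1* had an FPKM of 41.16, 7.84 and 13.68 in WT and of 31.14, 16.76 and 11.74 in Npr1+/- 1 to 3, the order seen for *S100b*. For *Cnp* the nearest were *Dck*, *Cldn22* and *Nmnat1*, for *Pmp22* they were *Phldb1*, *Dpy19l4* and *Arhgef10*, and for *Prx* they were *Gga2*, *Zfp983* and *Champ1*, at distances between 0.031 and 0.087. With 6 libraries and 13938 genes, close profiles occur for nearly level genes by their small spread alone. The genes nearest to *Sox10* and *Mbp* all had their highest FPKM in Npr1+/- 1, so that their closeness rests largely on that library.

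The letters upstream of the members that peaked together with *Sox10* are shown for *Mag*, *Cnp* and *Ncmap*, with *Prx* as a member that did not. Promoters of 6 of the 8 genes matched the RefSeq table of GRCm38.p6, and *Sox10* and *Mbp* did not. For each gene the start farthest upstream was taken, and the 200 bases from 250 to 51 before it were searched on both strands for the SOX core, ACAAAG or ACAATG, and for the EGR core, GCGTGGG, which do not overlap one another. Capitals mark a match on either strand. The windows are chr7:30914973-30915172 for *Mag* on the minus strand, chr11:100574689-100574888 for *Cnp* on the plus strand, chr4:135398278-135398477 for *Ncmap* on the minus strand and chr7:27499074-27499273 for *Prx* on the plus strand.
Mag: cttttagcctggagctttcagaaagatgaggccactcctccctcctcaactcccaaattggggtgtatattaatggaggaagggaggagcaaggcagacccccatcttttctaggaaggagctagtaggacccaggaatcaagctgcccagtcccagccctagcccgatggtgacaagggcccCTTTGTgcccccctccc
Cnp: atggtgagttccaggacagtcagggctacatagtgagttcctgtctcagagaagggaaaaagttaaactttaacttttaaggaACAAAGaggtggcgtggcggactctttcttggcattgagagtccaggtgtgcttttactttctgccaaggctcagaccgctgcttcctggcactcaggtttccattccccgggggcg
Ncmap: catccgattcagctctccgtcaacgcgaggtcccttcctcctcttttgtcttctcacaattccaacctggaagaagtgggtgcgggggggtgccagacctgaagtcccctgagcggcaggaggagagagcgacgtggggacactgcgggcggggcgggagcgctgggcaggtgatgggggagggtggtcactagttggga
Prx: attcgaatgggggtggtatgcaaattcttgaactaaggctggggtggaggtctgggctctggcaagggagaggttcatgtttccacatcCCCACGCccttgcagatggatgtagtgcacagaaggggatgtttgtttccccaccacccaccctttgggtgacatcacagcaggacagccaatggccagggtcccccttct
A SOX core was present in *Mag*, beginning 67 bases before the start and read on the opposite strand, and in *Cnp*, beginning 167 bases before the start. An EGR core was present in *Prx* alone of the 6 windows, beginning 161 bases before the start and read on the opposite strand. Of all 27025 genes in the table, 21.4% held a SOX core in the same window and 3.19% held an EGR core, and these matches are letters only.

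The other components of myelin were compared from a list of 15 genes, of which 10 passed the filter. None of them was called by edgeR's quasi-likelihood test, and 4 had an unadjusted p under 0.05, all higher in Npr1+/- aortas (beside 1.88% of all tested genes in that direction). Of the 15 genes 11 were highest in Npr1+/- 1, and of the 10 tested 8 were, beside 28.9% of all tested genes. *Cadm4*, the adhesion molecule by which Schwann cells hold the axon, had an FPKM of 1.41, 1.35 and 1.03 in WT and of 8.98, 2.01 and 2.60 in Npr1+/- libraries, without overlap. *Pllp*, a myelin lipid raft protein, was likewise at 0.24, 0.30 and 0.22 in WT and at 2.05, 0.53 and 0.42 in Npr1+/- libraries. The log2 fold changes of *Cadm4*, *Pllp* and *Mal*, another raft protein, were 1.87, 1.99 and 1.56, with an adjusted p of 0.999 for each from the same edgeR test. *Cd9* and *Tspan2*, tetraspanins that many cells make and the most abundant of the list, had an FPKM of 188.19 and 24.46 in Npr1+/- 1, the lowest of the 6 libraries for both. The median log2 fold change of the 10 genes was 1.29, against 0.01 over all tested genes, and it was 0.23 without Npr1+/- 1.

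Of 15 regulators of Schwann cells, 12 passed the filter, and 10 of these had a positive log2 fold change, beside 51.6% of all tested genes. By edgeR 0 were called, and 2 (*Dhh* and *Adam22*) had an unadjusted p under 0.05, beside 2.96% of all tested genes. *Dhh* is the hedgehog ligand by which Schwann cells organize the nerve sheath, and endothelium also makes it. Its pattern differed from that of the members that peaked in Npr1+/- 1. Its FPKM came to 1.34, 1.40 and 2.0 across WT 1 to 3 and to 3.74, 4.37 and 3.63 across Npr1+/- 1 to 3, without overlap and with no peak in Npr1+/- 1. The summed CPM of 7 endothelium genes ran from 481.8 to 847.1 in WT and from 895.3 to 1372 in Npr1+/- libraries, also without overlap, and its part in the level of *Dhh* was not tested. Its log2 fold change was 1.29 ± 0.22 (SE, unadjusted p = 0.000645, adjusted p = 0.999 in edgeR), and DESeq2 called it at an adjusted p of 0.00132, with a range from 0.00132 to 1.00 over the alternatives. Without Npr1+/- 1 its log2 fold change was 1.28. *Adam22*, the receptor of the Schwann cell protein LGI4, had a log2 fold change of 0.72 (edgeR, unadjusted p = 0.0394, adjusted p = 0.999). *Lgi4* itself had an FPKM of 10.17 in Npr1+/- 1 and of 2.59 to 5.35 in the other 5 libraries. *Erbb3*, the neuregulin receptor of the lineage, and *Egr2*, named for their roles after their values were seen, had an FPKM of 1.14 and 1.46 in Npr1+/- 1, and of at most 0.35 and 1.05 elsewhere. *Erbb2*, its partner in the receptor, was lowest in Npr1+/- 1 at 3.15, against 3.85 to 5.86. The median log2 fold change of the 12 genes was 0.70, and it was 0.10 without Npr1+/- 1.

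For non-myelinating Schwann cells and the satellite glia of ganglia, 10 of 11 genes passed the filter. Of the 11 genes 9 were highest in Npr1+/- 1, and of the 10 tested 8 were, beside 28.9% of all tested genes. *Ngfr*, the low-affinity neurotrophin receptor of these cells and of sympathetic neurons, had an FPKM of 18.90 in Npr1+/- 1 and of 0.11 to 0.33 in the other 5 libraries. *L1cam*, an adhesion molecule of axons and of unmyelinated fibers, had an FPKM of 1.76, 1.67 and 1.38 in WT and of 7.65, 2.15 and 2.68 in Npr1+/- libraries, without overlap. *Ncam1*, the most abundant of the list, was lowest in Npr1+/- 1, at 26.41 against 50.47 to 82.45 elsewhere. The median log2 fold change was 0.96, and 0.04 without Npr1+/- 1. Of 10 genes of the node and of axon contact, 7 passed the filter. Their median log2 fold change was 0.085, but -0.35 without Npr1+/- 1. *Nrcam* had an FPKM of 0.90 in Npr1+/- 1 and of at most 0.22 elsewhere, while *Gldn*, the gliomedin of Schwann cell microvilli, was 5.59, 4.99 and 7.29 in WT and 3.65, 4.69 and 4.34 in Npr1+/- libraries. Of the genes in both lists, edgeR called 0. By the same test, 3 had an unadjusted p under 0.05 with a higher level in Npr1+/- aortas (*Ngfr*, *L1cam* and *Nrcam*), beside 1.88% of all tested genes. With a lower level there was 1, *Gldn*, beside 150 of 13938 tested genes.

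**Figure D4:**
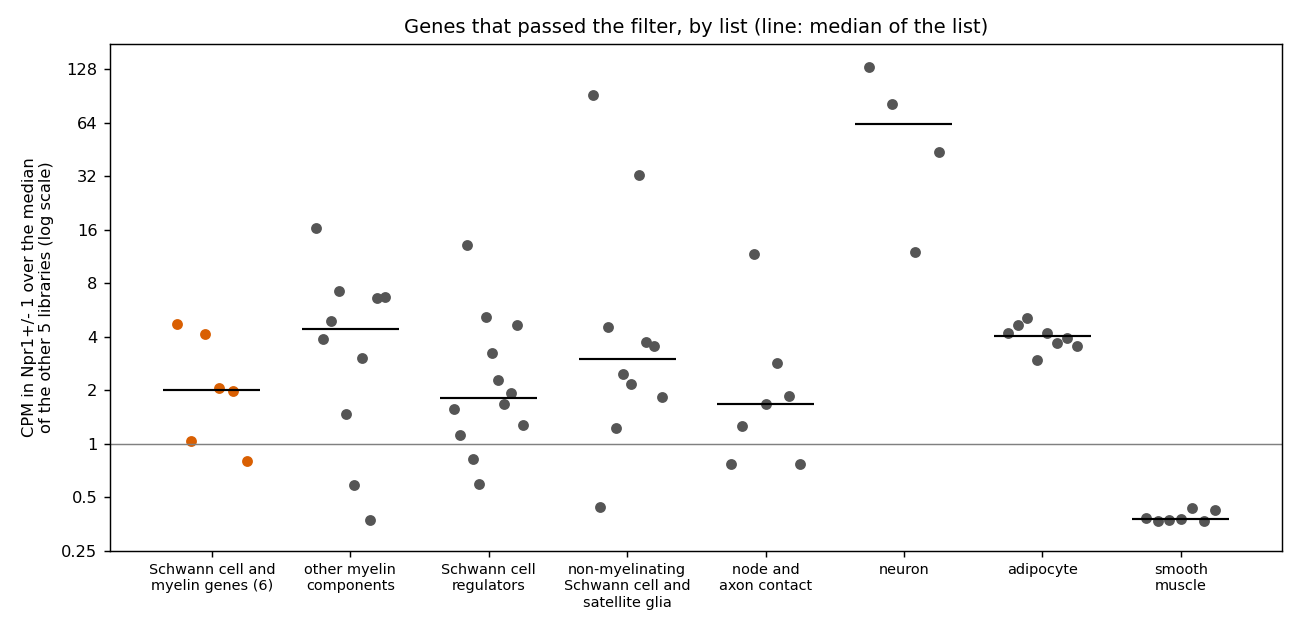
Ratio of CPM in Npr1+/- 1 to the median of the other 5 libraries (vertical axis, log scale) for each gene that passed the filter, by list, with the median of the list as a line. The 6 tested members spread from 0.80 for *Prx* to 4.68 for *Mbp*, the neuron genes lay between 12 and 131.9, and the smooth muscle genes all lay below 1.

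Other cell types share markers with Schwann cells. Of 9 oligodendrocyte genes, 6 were in the table. *Mog*, found in oligodendrocytes and not in Schwann cells, had its highest FPKM, 0.28, in Npr1+/- 1 and was at most 0.09 in the others. These values rest on 2, 0 and 1 counts across WT 1 to 3 and on 5, 2 and 1 across Npr1+/- 1 to 3. *Mobp*, *Ermn* and *Hapln2* were at most 0.06 in any library, and *Olig1* was highest in WT 1 at 0.71. *Myrf*, the regulator of oligodendrocyte myelin that is also made elsewhere, was lowest in Npr1+/- 1 at 3.25. The 7 melanocyte genes, which share *Sox10* with this lineage, summed to between 36.5 and 50.2 CPM in WT and between 43.7 and 61.9 CPM in Npr1+/- libraries. *Mitf* and *Kit*, which other cells also make, were the most abundant of them, with an FPKM of 3.38 to 7.14 and of 1.87 to 4.97. *Dct*, an enzyme of pigment synthesis, was highest in Npr1+/- 1 at 1.15 and at most 0.42 elsewhere, and the other 4, *Pmel*, *Tyr*, *Tyrp1* and *Mlana*, were at most 0.76 in any library. The part of these cells in the levels of the members was not tested. Of the 4 genes of the perineurium, the sheath of the nerve, *Itgb4*, which Schwann cells also make, had an FPKM of 2.54, 2.67 and 2.79 in WT and of 9.57, 4.38 and 6.37 in Npr1+/- libraries, while *Slc2a1*, the glucose transporter of this sheath and of many other cells, was lowest in Npr1+/- 1 at 15.91.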

How the data were processed

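RNA of 6 aortas or pools of aortas was sequenced on the BGISEQ-500 platform. The authors filtered reads with SOAPnuke, aligned them with Bowtie2 to a coding gene set and ran RSEM, which shares a read among the genes it fits. The authors deposited estimated counts without normalization and the FPKM of the same genes. The submitters' processing notes name mm10, the build of the coordinates used here (GENCODE M21). Symbols came from RefSeq for 18070 of 18191 genes. Columns of genotype means were not used.

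Estimated counts were rounded and fitted for Npr1+/- against WT with edgeR 4.0.16 (R 4.3.3): TMM scaling, a minimum count of 10, the quasi-likelihood test and Benjamini-Hochberg adjustment over 13938 genes. Log2 CPM used a prior count of 2. No covariate was used. The fit was tested on simulated counts. Single values were compared by exact two-sided permutation tests.

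Alternatives were DESeq2 1.42.0, its size factors, no filter, limma 3.58.1 on log2(FPKM + 0.1) and log2(FPKM + 1) where the mean FPKM reached 0.1, the replicate number as a block, each library left out, and both libraries numbered 1 left out. DESeq2 with the block was added after the data were seen. Deviations from the genotype mean correlated across genes at 0.64, 0.39 and 0.24 between same-numbered libraries (-0.58 to 0.44 otherwise). Only the libraries numbered 1 stood apart as a pair. WT 2 correlated with Npr1+/- 2 and Npr1+/- 3 at 0.39 and 0.37, and WT 3 at 0.44 and 0.24. The block takes the numbers as pairs, though these values do not show that numbers 2 and 3 are matched. The labels give no reason for the pairing.

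The members and gene lists were chosen with earlier results of these data known. Named genes were drawn from the members, *Npr1*, the 3 most abundant genes of a list, those with an unadjusted p under 0.05 and the nearest profiles. Not every gene of this rule is described above. *Zeb2*, *Art3*, *Scn7a*, *Ank2* and *Cntnap1*, each among the 3 most abundant of its list, are not. Their CPM in Npr1+/- 1 was 1.27, 1.82, 2.16, 0.77 and 1.67 times the median of the other libraries. *Erbb3*, *Egr2*, *Dct*, *Ermn*, *Hapln2*, *Lep*, *Mlana*, *Mobp*, *Retn*, *Tyr* and *Tyrp1* were named after their values were seen. A further gene that this rule names is not reported here.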

Additional observations from a re-analysis of the deposited data

How the results depend on the processing

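The number of genes called was 15 with DESeq2, 1 without both libraries numbered 1 and 268 with DESeq2 and the replicate block, against 0 in edgeR's fit of all libraries and 0 with each library left out. The number of members called was 1 with DESeq2 and the block, where *Mbp* had a log2 fold change of 1.09, and 0 under the others. The replicate block in edgeR changed no call. The log2 fold change of *S100b* turned positive with FPKM (0.11 with a pseudocount of 0.1 and 0.093 with 1), with the block (0.10, and 0.11 in DESeq2) and without both libraries numbered 1 (0.31), where that of *Cnp* was -0.10. With each library left out, *S100b* ranged from -0.50 to 0.74, *Sox10* from -0.078 to 1.55, *Cnp* from -0.17 to 0.58 and the median of the members from -0.13 to 0.56.

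Without both libraries numbered 1, the median log2 fold change was 0.31 for other myelin components, 0.13 for regulators, -0.017 for non-myelinating cells and satellite glia and -0.40 for node and axon contact. It was 0.71 for neuron genes and 0.36 for the perineurium, from the 4 of 12 and the 3 of 4 genes that passed the filter. With each library left out these medians ranged from 0.23 to 1.70, from 0.10 to 0.82, from 0.037 to 1.25, from -0.35 to 0.33, from 0.86 to 5.25 and from -0.15 to 1.26. Other myelin components had a median of 0.43 with limma on log2(FPKM + 1). Neuron genes had 2.23 and 1.60 with limma at a pseudocount of 0.1 and 1, and 2.05 with DESeq2 and the block. The cause of these moves was not tested. Depth limits *Mag* and *Ncmap*, whose WT libraries hold at most 5 counts.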
